A study of Mus with 3 samples.

Results

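Genes of lysozymes and of phagocytes were followed on 3 arrays of mouse hippocampal RNA. They were Lyz1 and Lyz2, which encode the mouse lysozymes, and Mpeg1, Cd68, Lgals3 and Msr1, and they were chosen by name as 6 of 23693 named genes. Every probe that carries 1 of these names in the scanner files was taken, which gave 8 of 39429 gene probes, each printed at 1 spot. Lyz1, Lyz2, Cd68 and Lgals3 had 1 probe each and Mpeg1 and Msr1 had 2 each. The differences of these genes between the 3 arrays were part of the reason for choosing them, so their values are given as a description, with no test. Lyz1 was highest in normal controls and lowest in the mice given the amyloid peptide without the oil, Mpeg1 was highest in the mice given peptide and oil, and Lyz2 was well above background in those mice alone.

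Lysozyme cuts the peptidoglycan of bacterial cell walls and is stored in the granules and lysosomes of phagocytes. The mouse has neighbouring copies of the gene, Lyz1, known from Paneth cells of the intestine, and Lyz2, known from macrophages and neutrophils. Mpeg1 encodes perforin-2, a pore-forming protein of phagocyte vesicles. Cd68 encodes macrosialin, a membrane protein of late endosomes and lysosomes, Lgals3 encodes the galactoside-binding lectin galectin-3, and Msr1 encodes a scavenger receptor that takes up modified lipoproteins. In the brain, microglia are the resident phagocytes, and these genes other than Lyz1 are known as markers of macrophages and of microglia that take up debris.

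The mice were male Slc:ddY mice, an outbred stock, aged 6 weeks, in groups of 10. Distilled water was given by mouth over 15 days to NCO, the normal controls, and to ACO, the controls for the peptide, while ASO, the oil group, was given shochu oil, a fraction of a Japanese distilled spirit, at 2000 mg/kg/day. On day 8 the ACO and ASO mice received 10 nmol of Aβ25-35, a neurotoxic piece of amyloid β, in 5 µL into the cerebral ventricles, and the NCO mice received 5 µL of distilled water by a route that the labels do not spell out, so that the injection and the peptide cannot be told apart if that route differed. The hippocampus was taken after a Y-maze trial on day 16, RNA of 2 mice made a set, and the 5 sets of a group were pooled for 1 array, so that each group had 1 array and no replicates. Whole hippocampal tissue was pooled, so fewer cells of a type and less RNA per cell cannot be told apart in any value below.

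A probe was called well above background where the scanner software's ratio of signal to noise reached 2.6, and 50.9% of gene probes on NCO, 51.7% on ACO and 53.7% on ASO met this. Signal is the foreground corrected for local background and scaled so that the arrays share a 75th percentile. A difference is the log2 of signal plus 50 on the first named array minus that on the second. Among 11 markers of hippocampal neurons, 11 were well above background on NCO, 11 on ACO and 10 on ASO. Spike-in transcripts, which are added to the labelling reaction, stood higher on ASO. The median was taken over the 5 of 10 spike-in probes above background and with less than 50% of pixels saturated on all 3 arrays. It was 0.48 against ACO and 0.35 against NCO. The part of the spike-in transcripts in the results was not tested beyond the scaling given below.

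Of the 6 genes, 3 were well above background on all 3 arrays (Lyz1, Mpeg1 and Lgals3), 1 on the ASO array alone (Lyz2) and 2 on no array (Cd68 and Msr1). The plot of spot and local background intensities shows all 8 probes on the scanner's own scale.

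**Figure D1:**
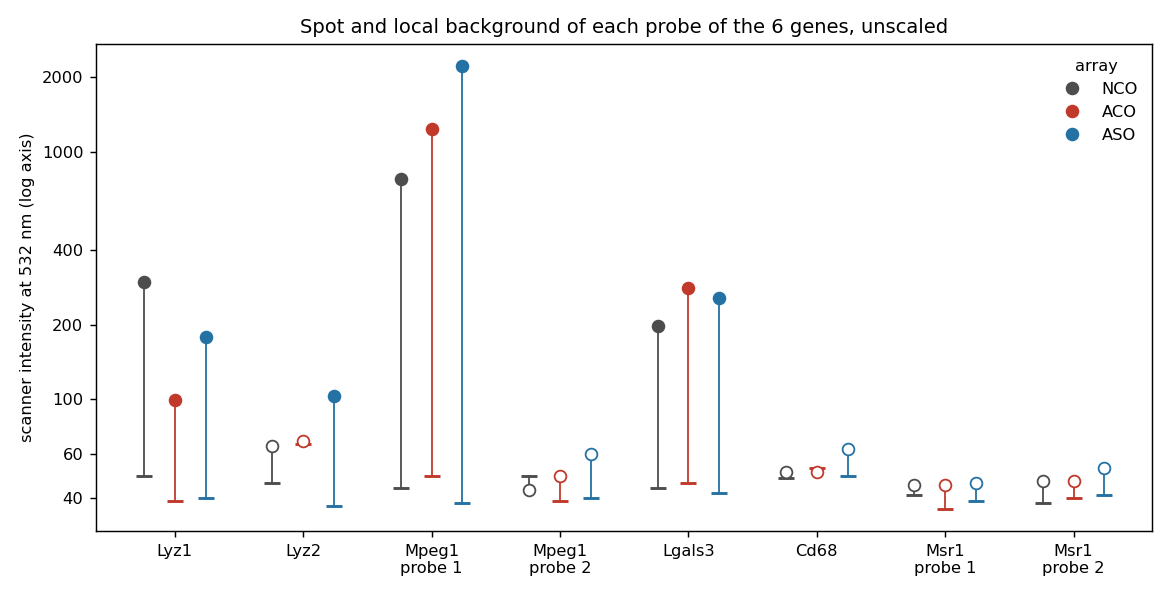
Foreground median (circles) and local background median (dashes) of each probe on the NCO, ACO and ASO arrays, as unscaled scanner intensity in the Cy3 channel on a log axis. Filled circles are well above background; the Cd68 and Msr1 probes stay between 45 and 63 on every array, while the first Mpeg1 probe reaches 2214 on ASO.

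The Lyz1 spot had a foreground of 298 over a local background of 49 on NCO, 99 over 39 on ACO and 178 over 40 on ASO. After correction and scaling its signal was 283.0 (NCO), 73.5 (ACO) and 153 (ASO). NCO was thus the highest array, ACO the lowest and ASO between them. The difference was -1.43 in ACO minus NCO, a 2.70-fold lower level on this scale, 0.71 in ASO minus ACO and -0.72 in ASO minus NCO.

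With 1 pool a group, the only error that can be measured is that between spots. Among the probes printed at 10 spots whose signal lay within 0.5 log2 units of that of Lyz1, the difference between ACO and NCO had a median SD over spots of 0.10 and a highest SD of 0.23 (42 probes). For ASO against ACO these were 0.11 and 0.21 (48 probes), and for ASO against NCO 0.12 and 0.35 (39 probes). The 3 differences of Lyz1 were larger than these spot SDs, which say nothing about the spread between mice or between labelling reactions.

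Only 1 of 13317 genes had a lower difference than Lyz1 in ACO minus NCO. In ASO minus ACO, 98 of 13571 genes had a higher one, and for ASO against NCO, 29 of 13460 genes had a lower one. The spots around Lyz1 were themselves dimmer on the first named array of each comparison. Their median difference was -0.17 in ACO minus NCO (60 spots), -0.19 in ASO minus ACO (60 spots) and -0.32 in ASO minus NCO (58 spots). After subtraction of these values Lyz1 stood at -1.26, 0.90 and -0.40, so that ASO stayed below NCO but by less than 1.5-fold.

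Lyz1 was also the 1 gene of the set in the authors' deposited table of 475 probes, which held 1 of the 8 probes. In the authors' deposited table Lyz1 had a value of 253.8 (NCO), 47.9 (ACO) and 120.4 (ASO). Nothing is added before the logarithm there, and the log2 ratios in the authors' deposited table were -2.41 for ACO over NCO, 1.33 for ASO over ACO and -1.08 for ASO over NCO. Of the 475 probes in the authors' deposited table, 1 had a lower ratio of ACO to NCO and 9 had a higher ratio of ASO to ACO. The order of the 3 arrays was the same as in the scanner values. The deposited values are a rescaling of the foreground of the same spots, so this order is no separate measure of Lyz1.

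Lyz2 is the lysozyme gene that macrophages are known for, yet its probe was dim. Its spot had a foreground of 65 over a local background of 46 on NCO, 68 over 66 on ACO and 103 over 37 on ASO. Its signal to noise score was 0.54 (NCO), 0.21 (ACO) and 3.05 (ASO), so that the ASO score passed the threshold narrowly and the others did not reach it. The signal was 81.3 on ASO, and the values of 38.4 on NCO and 18.5 on ACO are not well above background and are no measured levels.

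The ASO value can be set against a reference on the dim array. It is the higher of the probe's own log2 value there and the lowest value among probes well above background. On both ACO and NCO the higher was the probe's own dim value. Lyz2 on ASO stood 1.92-fold over it on ACO and 1.48-fold over it on NCO. Both folds rest on values that are no measured levels, so neither is a lower bound. The fold against ACO also rests on the local background there. The local background of the Lyz2 spot on ACO, 66, was higher than that of 99.8% of spots on the array, while the 76 spots around it had a median of 41. With the array's median background for every spot, a setting chosen after the data were seen, the signal of Lyz2 was 31.2 (NCO), 30.0 (ACO) and 66.5 (ASO). The ASO array then stood 0.54 above ACO (1.46-fold) and 0.52 above NCO (1.43-fold), short of 1.5-fold in both, and NCO and ACO were 0.02 apart.

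The 2 lysozyme genes lie next to each other in the genome, with no listed gene between them, and their arrays stood in different orders. ASO was the highest array for Lyz2 and the middle one for Lyz1. NCO was the highest array for Lyz1, while Lyz2 was not well above background there. For ASO against NCO, Lyz1 was lower (-0.72, and -0.40 after correction by the surrounding spots). Lyz2 stood 1.43-fold to 1.64-fold above its own dim NCO value over 4 ways of treating the background. That NCO value is no measured level, and these folds of Lyz2 were taken under the main scaling alone. A test of this contrast was not possible with 1 array a group. Levels of different probes have no common scale, so which lysozyme was more abundant cannot be read from them. The transcripts listed as hits of the Lyz1 probe do not name Lyz2, nor the reverse, but the genes are close relatives and binding of each probe to the other transcript was not tested.

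**Figure D2:**
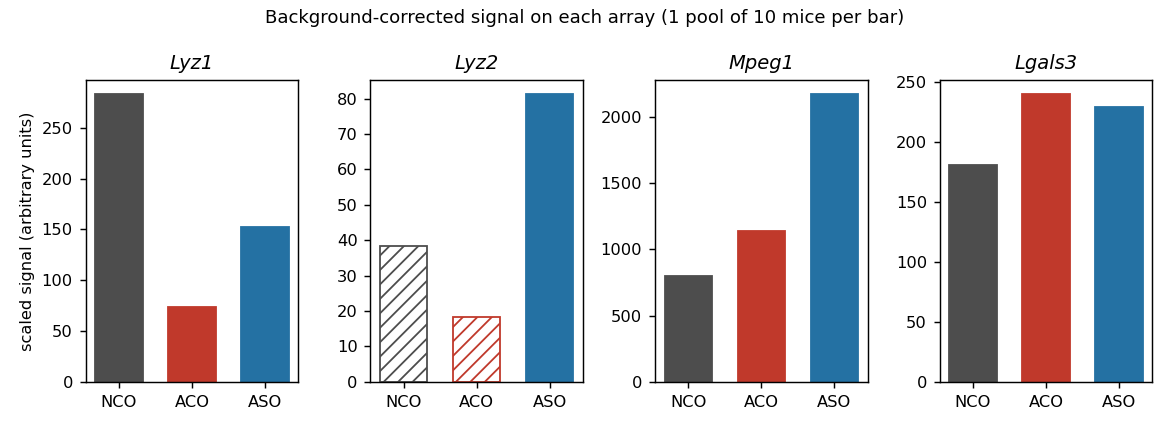
Scaled, background-corrected signal (arbitrary units, each panel with its own axis from 0) of Lyz1, Lyz2, the first Mpeg1 probe and Lgals3 on the NCO, ACO and ASO arrays, 1 pool of 10 mice per bar and no error bars. Hatched bars are not well above background; Lyz1 is highest on NCO at 283.0, Lyz2 and Mpeg1 are highest on ASO at 81.3 and 2172, and Lgals3 spans 180.9 to 239.6.

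Mpeg1, the perforin-2 gene, stood highest on ASO. The foreground of its first probe was 776 (NCO), 1233 (ACO) and 2214 (ASO), over a local background of 44, 49 and 38. Its signal was 796.7 (NCO), 1140 (ACO) and 2172 (ASO), so that each array in this order was brighter than the one before.

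The difference of Mpeg1 was 0.49 in ACO minus NCO, 0.90 in ASO minus ACO and 1.39 in ASO minus NCO, the last a 2.62-fold higher level. The median spot SDs at like signal were 0.08 (38 probes), 0.09 (38 probes) and 0.09 (37 probes), well below each difference. For ASO against NCO, 4 of 13460 genes stood higher, for ASO against ACO 41 of 13571 did and for ACO against NCO 42 of 13317 did. The spots around this probe differed by at most 0.06 either way, and after correction by them Mpeg1 stood at 0.47, 0.96 and 1.42.

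The second Mpeg1 probe was not well above background on any array. Its foreground was 43 (NCO), 49 (ACO) and 60 (ASO), and its signal to noise score reached 2.20 on ASO. It gives no separate measure of the gene, so the Mpeg1 result rests on 1 probe and 1 spot an array.

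Lgals3, the galectin-3 gene, differed by less than 1.5-fold in each comparison. Its foreground was 197 (NCO), 281 (ACO) and 257 (ASO), over a local background of 44, 46 and 42. Its signal was 180.9 (NCO), 239.6 (ACO) and 228.9 (ASO), so that both peptide-injected groups stood above the control and close to each other.

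The difference of Lgals3 was 0.33 for ACO against NCO and 0.27 for ASO against NCO, with median spot SDs of 0.10 (39 probes) and 0.12 (37 probes). For ASO against ACO it was -0.05 with a spot SD of 0.10 (41 probes), which is within spot error. After correction by the surrounding spots the 3 values were 0.24, 0.28 and -0.01 in that order. Before that correction, 190 of 13317 genes stood higher than Lgals3 for ACO against NCO. For ASO against NCO 1305 of 13460 did, and for ASO against ACO 7983 of 13571 did.

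Cd68 and Msr1 could not be measured here. The Cd68 spot had a foreground of 51 (NCO), 51 (ACO) and 63 (ASO) over a local background of 48, 53 and 49. Its signal to noise score was 0.1 or less on every array. The first Msr1 probe had a foreground of 45, 45 and 46 and the second of 47, 47 and 53 on the same arrays, with scores up to 1.1. These probes show only that the signal was not well above background on these arrays, and a difference between groups was not detectable for either gene.

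By the size rule of 1.5-fold, 1 of the 3 measured genes was lower on ACO than on NCO, Lyz1, and none was higher. Over all genes measured on both arrays 0.21% were that much lower and 0.203% higher. Lyz1 was 1 of 5 genes at least 2-fold lower, which are 0.0375% of 13317. Between ASO and ACO, Lyz1 and Mpeg1 were at least 1.5-fold higher on ASO, against 1.64% of 13571 genes, and none of the 3 was that much lower, against 0.273%. No gene of the set was 2-fold apart there, where 0.184% of genes were that much higher and 0.0663% lower. Between ASO and NCO, Mpeg1 was higher, against 1.65% of 13460 genes, and Lyz1 was lower, against 0.357%. Mpeg1 was also 1 of 24 genes at least 2-fold higher there, which are 0.178%, while 0.0892% were 2-fold lower and none of the set was. Because the genes were chosen from these contrasts, nothing is read from these shares. The median over the 3 measured genes was 0.33 in ACO minus NCO, 0.71 in ASO minus ACO and 0.27 in ASO minus NCO, while over all genes it was 0.005, -0.013 and -0.014.

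**Figure D3:**
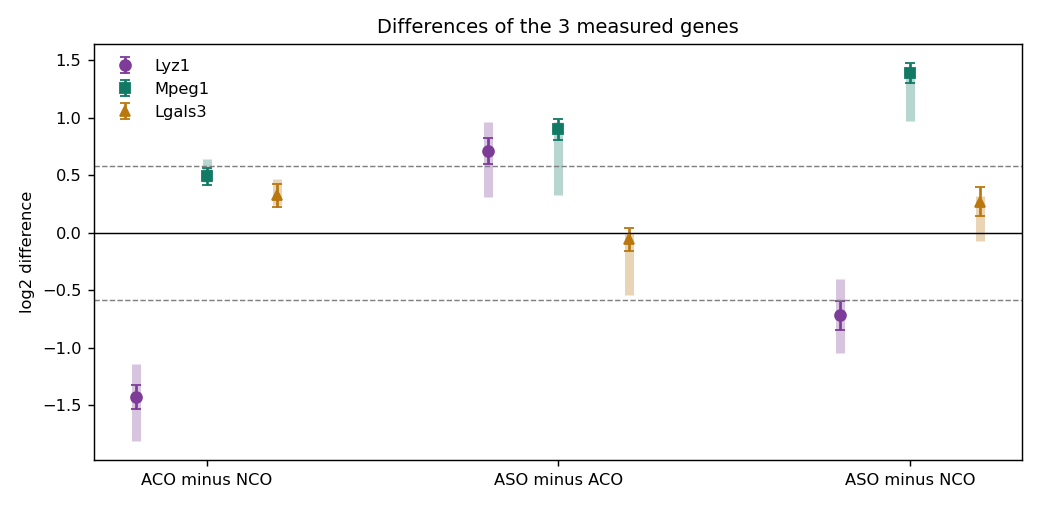
Log2 difference of Lyz1, Mpeg1 and Lgals3 in the 3 comparisons, which share arrays. Points are the values of the text with the median SD over spots of like-signal probes as error bars, pale bars span all alternative processings, and dashed lines mark 1.5-fold; Lyz1 lies at -1.43 for ACO minus NCO and Mpeg1 at 1.39 for ASO minus NCO.

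The scaling between arrays bears on the ASO comparisons. With the arrays scaled to the spike-in probes the median of all genes moved by 0.14 in ACO minus NCO, by -0.52 in ASO minus ACO and by -0.38 in ASO minus NCO. In the second of these, Mpeg1 was then at 0.33 and Lyz1 at 0.31, both short of 1.5-fold, but these lay 0.86 and 0.84 above the median of all genes. Lgals3 was at -0.54, level with that median. In ASO minus NCO, Lgals3 changed side to -0.07 while Mpeg1 was at 0.97 and Lyz1 at -1.04. Under the main scaling 222 genes were at least 1.5-fold higher and 37 lower for ASO against ACO. These counts became 113 and 110 when the arrays were scaled to the median of gene spots and 15 and 5524 with the spike-in probes. Between ASO and NCO, 222 and 48 genes became 144 and 83, and 31 and 2269. For ACO against NCO, 27 and 28 became 64 and 15 with the spike-in probes.

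The genes whose pattern over the 3 arrays was most like that of Lyz1 were looked for among 9895 brighter genes, by the distance between the pairs of differences ACO minus NCO and ASO minus ACO. These 2 differences share the ACO array, so they are not independent. The nearest was Pinx1, a telomerase inhibitor gene, at a distance of 0.41, with a signal of 1500 (NCO), 454.1 (ACO) and 1010 (ASO). The next was Itgam, which encodes the CD11b integrin of myeloid cells, at 0.45, with 8521, 3760 and 4790. The third was LOC790956 at 0.59, with 1614, 879.4 and 1495. None of these brighter genes was nearer to Lyz1 than Pinx1, and the dimmer genes measured on all 3 arrays were not searched.

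The genes most like Mpeg1 lay closer to it. They were Pou1f1, a pituitary transcription factor gene, at a distance of 0.23, Pogz at 0.26 and Cd74, the invariant chain of MHC class II, at 0.28. Cd74 had a signal of 246.9 (NCO), 340.2 (ACO) and 558.8 (ASO), from its single probe. Pou1f1 and Pogz each had a second probe that did not show the pattern. The second Pou1f1 probe was not above background on all 3 arrays, and the second Pogz probe had 225.6, 196.9 and 202.1.

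**Figure D4:**
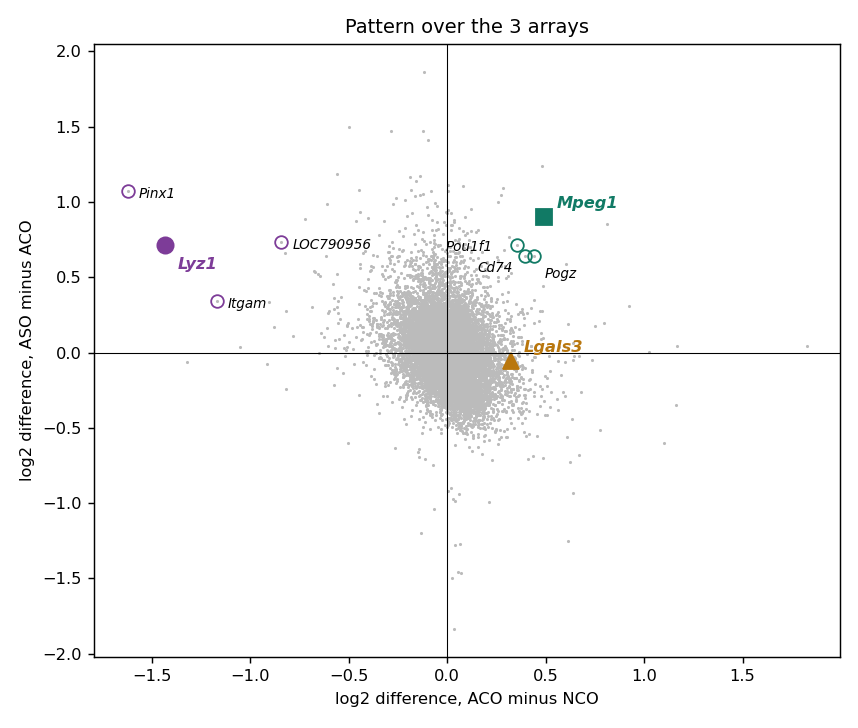
Each point is 1 of 13193 genes measured on all 3 arrays, by its log2 difference for ACO minus NCO (horizontal) and ASO minus ACO (vertical); both axes use the ACO array. Lyz1 lies far to the left with Pinx1, Itgam and LOC790956 (open circles) as nearest genes, Mpeg1 lies above and to the right with Pou1f1, Pogz and Cd74, and Lgals3 lies near the horizontal axis.

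Genes that work with these phagocyte genes were given by lists. Of all genes measured, 51.8% were higher in ACO minus NCO, 47.1% in ASO minus ACO and 47.1% in ASO minus NCO, and the counts of each list stand beside these shares. Of 14 genes of the phagocyte oxidase and the lysosomal membrane, 13 were measured. For ACO against NCO 8 were higher and 5 lower, with a median of 0.02 and a range from Lamp1, a lysosomal membrane glycoprotein gene, at -0.22 to Npc2, a cholesterol carrier gene, at 0.23, and none reached 1.5-fold. On ASO 12 of 13 were higher than on ACO, with a median of 0.31. Ncf4 (0.68) and Cyba (0.64), which encode subunits of the oxidase, were past 1.5-fold, and Lamp2 was lowest at -0.13. Against NCO 10 of 13 were higher on ASO, with a median of 0.46 and Ncf4, Cyba and Laptm5 past 1.5-fold. Cybb, the catalytic subunit of the oxidase, was not above background on any array.

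Of 15 scavenger and uptake receptors, 9 were measured on both ACO and the array compared with it. For ACO against NCO their median was 0.03, with 7 higher and 2 lower and none past 1.5-fold, from Megf10 at -0.17 to Fcgr3 at 0.12. Between ASO and ACO the median was 0.26, with 7 higher and Fcer1g, the common chain of Fc receptors, at 0.74 as the 1 gene past 1.5-fold. Megf10, an engulfment receptor of astrocytes, was lowest at -0.27. Against NCO 9 of 11 were higher with a median of 0.36, Fcer1g at 0.79 and Megf10 at -0.44. Like Msr1, the scavenger receptor genes Cd36, Marco, Colec12 and Olr1 were not above background on any array.

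Lgals3 differed from some of its relatives in the ASO comparisons. Of 8 other genes of galectins and their binding protein, 5 were measured. For ACO against NCO 4 were higher, up to Lgals3bp at 0.47, and Lgals9 was lowest at -0.06. On ASO Lgals9 was, against ACO, highest at 0.53 and Lgals8 lowest at -0.25, with a median of 0.26 and none past 1.5-fold. Against NCO the median was 0.47 with 2 past 1.5-fold, and Lgals3bp was highest at 0.75.

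Of 8 other genes of the lysozyme family, Lalba and Lyzl4 were measured and 6 were not above background on any array. Lalba, the α-lactalbumin gene, was at -0.05, 0.15 and 0.10 and Lyzl4 at -0.10, -0.004 and -0.11 in ACO minus NCO, ASO minus ACO and ASO minus NCO, so that neither came near the size rule. Of 7 myeloid transcription factors 4 were measured for ACO against NCO, with a median of 0.06 and a range from Cebpa at -0.09 to Cebpb at 0.17. Against ACO 3 of 4 were higher on ASO with a median of 0.31, Irf8 at 0.47 and Cebpb at -0.26. Against NCO Irf8, a factor of microglia and macrophages, was at 0.63 and past 1.5-fold, with 3 of 5 higher.

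Markers of microglia, like Mpeg1, stood higher on ASO under the main scaling. Of 15 markers of disease-associated microglia 10 stood higher on ASO by at least 1.5-fold against ACO and 10 against NCO, with medians of 0.71 and 0.70, where 1.64% and 1.65% of all genes were that much higher. Cst7, a cystatin gene, was highest against ACO at 1.47 and Cd52 highest against NCO at 1.72, and Lpl was lowest in both at -0.24 and -0.18. Apoe, the brightest of them, was saturated on ASO, and the summed signal of the others was 31700 (NCO), 32650 (ACO) and 43260 (ASO). For ACO against NCO their median was 0.03 with 10 of 15 higher, Ccl6 at 0.60 and Gpnmb at -0.21. All 12 markers of homeostatic microglia were measured, and 6 were higher in ACO minus NCO and 11 in each ASO comparison. P2ry12, a purinergic receptor gene of resting microglia, went the other way, at 0.37 in ACO minus NCO, -0.40 in ASO minus ACO and -0.03 in ASO minus NCO. The highest were Olfml3 at 0.73 against ACO and Aif1 at 0.82 against NCO. Their medians were 0.003 in ACO minus NCO, 0.31 in ASO minus ACO and 0.28 in ASO minus NCO, with a summed signal of 27480 (NCO), 27980 (ACO) and 32910 (ASO). With the spike-in scaling the medians of ASO minus ACO turned to -0.08 for the oxidase list, -0.21 for the uptake receptors, -0.31 for the galectins, -0.13 for the transcription factors, -0.26 for homeostatic microglia and -0.21 for border-associated macrophages, all above the median of all genes there, and that of disease-associated microglia was 0.23. In ASO minus NCO they became 0.10, 0.04, 0.20, -0.08, -0.13 and -0.12 in the same order, and 0.35 for disease-associated microglia. Markers of other cells were also compared under the main scaling. All 5 astrocyte markers were higher on ASO than on ACO, with a median of 0.12. They ranged from Aldh1l1 at 0.05 to Gfap, the glial filament gene, at 0.84. With the spike-in scaling 1 of 5 was higher, with a median of -0.46, where the median of all genes was -0.53. Of 10 measured markers of hippocampal neurons 4 were higher and 6 lower under the main scaling, with a median of -0.18. The part of microglia in the Mpeg1 and Lyz2 values was not tested.

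Neutrophils and macrophages of the brain's borders are known to carry lysozyme too. Of 9 neutrophil markers S100a8, Ngp, Ltf, Mpo and Retnlg were not above background on any array. The summed signal of the list, these dim probes included, was 480 (NCO), 572.5 (ACO) and 712.6 (ASO). Of this Lcn2 had 82.05, 109.6 and 279.4, and the others summed to 398.0, 462.9 and 433.2, with no rise from ACO to ASO. The 4 that were measured ranged from Camp at -0.01 to S100a9 at 0.67 for ACO against NCO and from S100a9 at -0.68 to Lcn2, which astrocytes also make, at 1.05 for ASO against ACO. S100a9 was thus highest on ACO, while Camp, Elane and Lcn2 were each highest on ASO under the main scaling. The part of neutrophils in the lysozyme values was not tested. Of 8 markers of border-associated macrophages 6 were measured, and Cd163 and Lyve1 were not above background. Their median was -0.02 for ACO against NCO, and for ASO all 6 were higher, with medians of 0.15 against ACO and 0.19 against NCO and none past 1.5-fold, while with the spike-in scaling 1 of 6 was higher in each. Of 5 monocyte markers with a probe, Ccr2 was never above background. Another marker passed that threshold for ASO only, as Lyz2 did, so no difference was taken for it. Chil3, Vcan and F10 were measured. They stood at 0.20, -0.08 and -0.06 in ACO minus NCO and at -0.20, 0.34 and 0.48 in ASO minus ACO. The F10 spot, saturated on ASO, made up most of the summed monocyte signal of 48580 (NCO), 46720 (ACO) and 65280 (ASO), and the others summed to 318.6, 334.0 and 388.5.

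**Figure D5:**
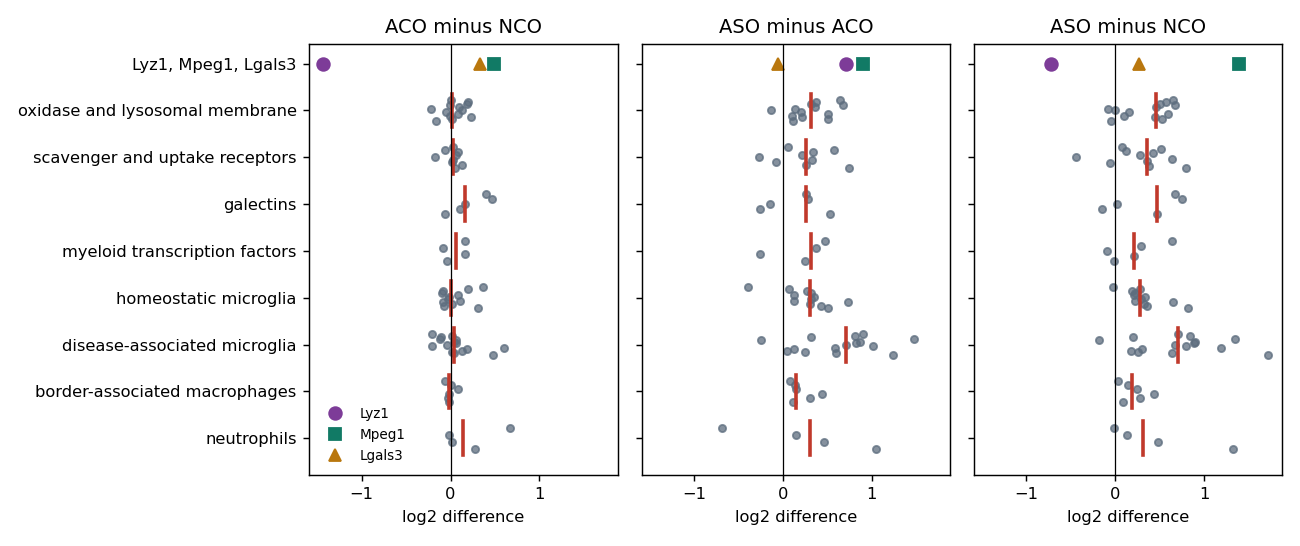
Log2 differences of single genes (grey points) and their median (red bar) in 8 lists, with Lyz1, Mpeg1 and Lgals3 in the top row, for the 3 comparisons, which share arrays. For ACO minus NCO the list medians lie between -0.02 and 0.16 while Lyz1 is at -1.43; for both ASO comparisons the list medians lie above 0 and Mpeg1 lies to the right of each of them.

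Markers of choroid plexus, which borders the hippocampus, were mostly higher on ACO. Of 9 markers 8 were higher on ACO than on NCO with a median of 0.51, led by Kcne2 at 0.61, while Ttr, the transthyretin gene, was at -0.46. Against ACO 2 of 9 were higher on ASO, with a median of -0.21. Against NCO 8 of 9 were higher on ASO, with a median of 0.25. With the spike-in scaling 1 of 9 was higher in ASO minus NCO, with a median of -0.08, where the median of all genes was -0.39. The summed signal of the list was 24000 (NCO), 20200 (ACO) and 20350 (ASO), of which Ttr had 20070, 14580 and 15660, and the other 8 summed to 3929, 5619 and 4696. Red blood cell genes had medians over 4 genes of -0.16 in ACO minus NCO, 0.20 in ASO minus ACO and 0.09 in ASO minus NCO. Hbb-b2 was at 0.93 for ASO against ACO. The part of these tissues in the values of the lysozyme and phagocyte genes was not tested.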

How the data were processed

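Total RNA of hippocampus pools, 200 ng each, carried Cy3 and was put on 1 array a group, all on 1 slide. The foreground, background and mean intensities were deposited as GenePix Pro 6.1.0.4 gave them from a GenePix 4000B scan at 532 nm, with no normalization, per the file headers. Also deposited unchanged were a percent (pixels saturated in a spot), a score (signal over noise) and spot marks. The submitters' processing notes name Agilent Feature Extraction, whose columns were not used here. In the authors' deposited table the intensities equal the foreground less 44.2, 46.8 and 43.1 on NCO, ACO and ASO, times 1, 0.917 and 0.893, within 0.05 for all 448 probes of 1 spot, with column medians of 116.8, 97.4 and 113.3. Its scale is linear and its direction that of signal, and the reason for the factors stays unknown.

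Foreground medians were corrected with limma 3.58.1 in R 4.3.3 (normexp, offset 0) and scaled by 1.06, 0.949 and 0.991. After 50 was added, which draws dim differences towards 0, log2 values of repeated spots were averaged. Probes with a bad-spot mark, or with 50% of pixels saturated on both arrays, were left out. A gene was its brightest probe above background on both arrays. Names came from RefSeq GRCm38.p6 symbols, 26581 probes by accession, 2597 by symbol and 490 by synonym, with 1804 left at the name in the files and 7957 unnamed. Later steps used Python 3.11.15, numpy 2.4.6 and pandas 2.3.3. The steps were tested on simulated data with known folds in probes of higher signal to noise than Lyz1, Lyz2 and Lgals3 had. Recovery of folds at those dimmer levels was not tested.

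With 1 array a group no test was run, and genes were counted by fold. The members and lists were chosen with earlier results of these data known. Named were all 6 genes, the highest and lowest gene of each list (one is not reported here), and the 3 nearest genes to members past 1.5-fold. Others, such as Cyba, were named after their values were seen. The labels once name the injected oil group by a code that no sample carries, and ASO was taken as that group. Probe and protein sequences were not used here.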

Additional observations from a re-analysis of the deposited data

How the results depend on the processing

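Over 127 alternative values of the 3 measured genes, 104 moved by less than the SD between spots, 23 moved by more and none turned a difference past 1.5-fold to the other side. Some of the 104 could not move, because each gene had 1 measured probe. A changed filter on dim probes, or a mean over the measured probes, then leaves a value as it was. The count of 104 is thus no measure of robustness. Lyz1 ranged from -1.81 with 10 added before log2 to -1.14 with 100 added for ACO against NCO, from 0.31 to 0.96 for ASO against ACO and from -1.04 to -0.40 for ASO against NCO. With the spike-in scaling the medians over the measured genes were 0.47, 0.31 and -0.072 for ACO against NCO, ASO against ACO and ASO against NCO, with 1 gene at least 1.5-fold higher (Mpeg1 at 0.65) in the first and 0 in the second. With no filter on dim probes the medians over all 6 genes were -0.12 for ACO against NCO and 0.51 for ASO against ACO, and the difference of Lyz1 less that of Lyz2, which is dim on NCO and ACO, was -1.06, -0.23 and -1.29. With the array's median background as well it was -1.57, 0.26 and -1.31, so that its sign in ASO minus ACO is not settled. For ASO against ACO the median was 0.55 with spot means, 0.92 with 10 added, 0.54 with 100 added, 0.90 after correction by surrounding spots and 0.42 where the signal to noise score had to reach 5. That minimum left out Lyz1 in the comparisons with ACO, where its own score was 3.12, so that 0 genes were then 1.5-fold lower for ACO against NCO and 1 higher for ASO against ACO, as with spot means (Lyz1 at 0.55) and with 100 added (0.54). Correction by surrounding spots left 0 genes 1.5-fold lower for ASO against NCO.

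Over all genes, 27 higher and 28 lower for ACO against NCO became 36 and 49 with 10 added and 14 and 18 with 100 added, and 37 lower for ASO against ACO became 63 with 10 added. There was no replicate to leave out, with 1 array a group. No paired analysis was possible because each group has 1 array. The setting with the array's median background was chosen after the data were seen and moved no value of the 3 measured genes past or short of 1.5-fold. Dim signal limits Lyz2, Cd68 and Msr1 most.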

Other observations

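Itgam, which was near Lyz1 in pattern, had 3 probes. The bright one stood at -1.17 for ACO against NCO, while the others, which were not above background on all 3 arrays, stood at -0.02 and -0.26. The spots around the bright Itgam probe differed by -0.02 and those around the Pinx1 probe by 0.04 in that comparison, against -0.17 around Lyz1. The bright F10 probe in the monocyte list had a signal of 48260 on NCO and at least 64890 on ASO, where 50% of its pixels were saturated, while a second F10 probe was not above background on all 3 arrays.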
